A study of Mus musculus with 14 samples.

Results

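The regions described here are the open chromatin regions around Nanog, Dppa3, Gdf3, Slc2a3 and Apobec1, 5 genes that lie side by side on mouse chromosome 6. They were chosen by position and by calls: peaks of the 14 ATAC-seq lists were merged wherever they shared 1 bp or more, which gave 124598 regions, and a region was taken when the nearest protein-coding transcription start within 50 kb of its centre belonged to one of the 5 genes (GENCODE M21, GRCm38). Of the 124598 regions, 50 met this rule, spread over 223.7 kb at chr6:122581279-122804986. There were 18 regions nearest to Nanog, 16 to Slc2a3, 8 to Dppa3, 4 to Gdf3 and 4 to Apobec1. The locus was picked with the calls of these libraries known, so its calls are described here and carry no test.

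ATAC-seq uses a transposase that inserts adapters into accessible DNA, and a peak marks a stretch where insertions pile up. The experiment used mouse embryonic stem (ES) cells of the KH2 line with a single-copy transgene (TRE:GATA6-DSREd2) from which doxycycline (Dox) switches on GATA6 together with the red fluorescent protein DsRed2. There were 7 time points (0, 2, 4, 8, 16, 24 and 48 h) with 2 libraries each, made from 50000 cells per library. The 0 h cells carried the transgene too, grew in 2i with LIF and got no Dox. The induced cells were in serum with LIF and received Dox at 1 µg/mL, for 2, 4, 8 or 12 h, and those of 16, 24 and 48 h were kept without Dox after the 12 h pulse. Induction therefore came with a change of medium, and the step from 8 to 16 h spans the removal of Dox, and these cannot be told apart from time. The study states that replicates were performed independently and ATAC-seq in duplicate, without saying for these libraries whether the 2 of a time point came from separate cultures.

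Nanog encodes a homeodomain transcription factor that holds ES cells in the naive pluripotent state and marks the epiblast (Epi). Its promoter and the distal elements upstream of it are bound by POU5F1 and SOX2, which recognise an octamer and an adjoining SOX motif. Dppa3 (Stella) protects the early embryo and germ cells from changes in DNA methylation, and Gdf3 encodes a TGF-beta family ligand of the epiblast. Slc2a3 encodes the glucose transporter GLUT3, and Apobec1 encodes a cytidine deaminase that edits RNA. GATA6 drives cells towards primitive endoderm (PrE), the extra-embryonic lineage that forms beside the epiblast, and binds GATA motifs.

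A region is named by its nearest gene and the distance in bp of its centre from that gene's start, where a minus sign means upstream. It was called in a library if that library's list had a peak in it. The rank of a peak is given as its percentile, the percentage of the peaks of the same list whose score was as high or lower. A region counted as lost when both 0 h libraries had called it and neither library of the later time did, and as gained in the opposite case. The lists held between 55588 and 65073 peaks, with the longest in 16 h replicate 2 (65073) and 61857 in 16 h replicate 1, and they contain no read counts, so depth is unknown and a region without a call may still be open below the threshold of that list. In bulk samples, fewer cells with an open region and less opening per cell cannot be told apart. Markers fitted the labels in part. Among 5 PrE genes (Gata4, Gata6, Sox17, Sox7, Pdgfra), promoters called in both libraries numbered 2 at 0 h and 5 at 48 h. Among 5 ES cell genes (Pou5f1, Sox2, Zfp42, Esrrb, Klf4) they numbered 2 at 0 h and 3 at 48 h. Esrrb had no promoter call in any of the 14 libraries. Pou5f1 had none at 0, 2 or 4 h and a call in both libraries from 8 h on, so its promoter calls did not follow the ES cell label. The calls say nothing of its expression. For these markers only regions within 1 kb of the start of the gene record were counted, and other transcript starts were not. Of 5 genes of other lineages, 3 had a promoter call at 0 h and 2 at 48 h (Cdx2 and Olig2 at both times, T at 0 h alone).

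The sequences that the account turns on are given first, on the plus strand of GRCm38 (RefSeq), with capitals for matches to the letters searched. The letters, on both strands, were AGATAA or AGATAG or TGATAA or TGATAG for GATA factors, ATGCAAA for the octamer, ACAATG for SOX, TCAAGGTCA for ESRRB, GGGNGNGGC for KLF, TTCNNNGAA for STAT and TGANTCA for AP-1. None of these contains another. A match describes the letters only. The first stretch is the 250 bases that end at the Nanog start, chr6:122707239-122707488, inside the promoter region whose calls went and came back. It holds an octamer and a SOX match 1 base apart, 68 bases from the start.
Nanog upstream of the start: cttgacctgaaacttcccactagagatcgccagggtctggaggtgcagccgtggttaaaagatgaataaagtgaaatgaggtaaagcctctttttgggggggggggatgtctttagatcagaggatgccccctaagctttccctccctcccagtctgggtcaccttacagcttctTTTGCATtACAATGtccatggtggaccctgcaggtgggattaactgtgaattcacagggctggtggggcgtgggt
Among 32817 mouse promoters cut in the same way, 4.13% held the octamer letters, 10.7% the SOX letters and 0.643% both. Next are the central 200 bases of Nanog −4721 (chr6:122702668-122702867), the most highly ranked region at 0 h, which held none of the letters.
Nanog −4721: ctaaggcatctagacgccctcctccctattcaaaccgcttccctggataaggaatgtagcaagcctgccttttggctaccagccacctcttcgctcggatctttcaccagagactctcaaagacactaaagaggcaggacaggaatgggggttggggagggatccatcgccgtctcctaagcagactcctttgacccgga
The central 200 bases of Nanog +44285 (chr6:122751674-122751873) and Slc2a3 +24238 (chr6:122777302-122777501) are shown because these regions were gained by 2 h and stayed called until 48 h. These central bases held 1 and 3 GATA matches, and those of the former also 2 overlapping octamer matches. Over their whole length the regions held 3 and 17 GATA matches.
Nanog +44285: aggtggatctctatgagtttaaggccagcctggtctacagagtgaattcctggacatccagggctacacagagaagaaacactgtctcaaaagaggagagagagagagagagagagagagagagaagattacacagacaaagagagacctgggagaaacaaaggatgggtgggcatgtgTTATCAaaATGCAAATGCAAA
Slc2a3 +24238: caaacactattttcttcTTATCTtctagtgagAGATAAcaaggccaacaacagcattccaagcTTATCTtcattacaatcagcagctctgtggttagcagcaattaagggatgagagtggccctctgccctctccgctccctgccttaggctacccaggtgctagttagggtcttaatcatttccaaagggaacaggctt
The last 2 are a region called at 2 and 4 h alone, Nanog −17721 (chr6:122689668-122689867, 1 AP-1 match), and a region lost at 48 h, Slc2a3 +31076 (chr6:122770464-122770663, 1 ESRRB match).
Nanog −17721: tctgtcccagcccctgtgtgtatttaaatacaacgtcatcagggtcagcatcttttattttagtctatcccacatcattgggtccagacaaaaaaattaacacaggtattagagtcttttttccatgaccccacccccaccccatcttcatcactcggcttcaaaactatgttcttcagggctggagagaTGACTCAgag
Slc2a3 +31076: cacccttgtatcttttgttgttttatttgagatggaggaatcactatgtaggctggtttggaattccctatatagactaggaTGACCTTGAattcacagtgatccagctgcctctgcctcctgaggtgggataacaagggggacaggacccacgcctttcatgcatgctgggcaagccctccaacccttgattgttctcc

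Across the cluster, the set of called regions turned over between 0 and 48 h. The mean number of called regions was the same at both times by the calls as defined above, but not in every setting. Both 0 h libraries called 24 regions in common. At 48 h 8 of these had no call in either library (33.3%, against 44.0% of all such regions), among them the Nanog promoter. Over the same time, 9 of the 18 regions without a call at 0 h were called in both 48 h libraries (50.0%, against 29.8% of all such regions). Calls in both libraries at 0 h and at 48 h were found for 13 of the 50 regions, and 11 were called in each of the 14 libraries, against 15.1% of all merged regions. The remainder comprised 8 regions called at intermediate times only and 12 that were called in 1 of the 2 libraries at 0 or 48 h. For the 13, 8 and 12 regions no share over all merged regions was counted, so these numbers describe the cluster only. The number of called regions per library was 28.0 ± 4.24 at 0 h (SD, n = 2, values 25 and 31), 25 ± 2.83 at 2 h (23 and 27), 32.5 ± 2.12 at 16 h (31 and 34), the highest mean, and 28.0 ± 1.41 at 48 h (27 and 29). Every other pair had a value within the range of the 0 h pair, so no time point stood apart from 0 h by more than the spread between its libraries. Of the regions called at a time point, between 10.0% (4 h) and 25% (0 h) were called in 1 library alone, against 24.2% to 26.4% over all regions. Counted in replicate 2 alone, that is without replicate 1, 13 regions were lost at 48 h, and in replicate 1 alone 10 were. When a call needed at least 50% of the region to be covered, 7 regions in place of 13 were shared between 0 and 48 h. The mean number of called regions was then lower at 48 h than at 0 h, while with lists of 50000 peaks it was higher. Replicate 1 alone had more called regions at 48 h than at 0 h, and replicate 2 alone had fewer. The direction of change in this number therefore hangs on the setting.

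**Figure D1:**
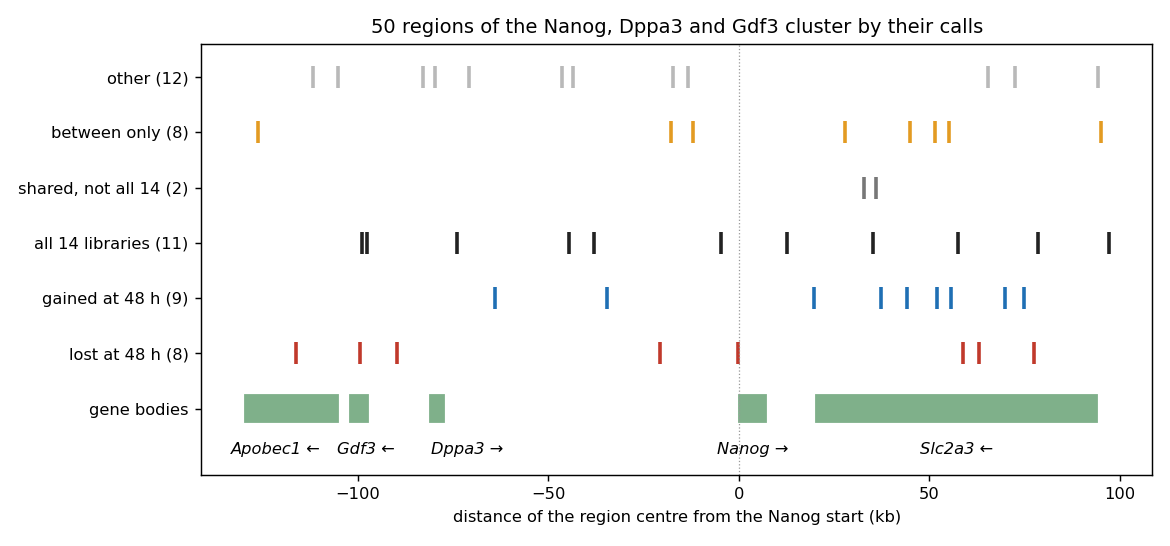
Positions of the 50 regions along the locus, as the distance of each region centre from the Nanog start in kb (x axis), in rows by their calls, with the number of regions in parentheses and gene bodies in green with arrows for the direction of transcription. Of the 9 regions gained at 48 h, 7 lie to the right of the Nanog start, and of the 8 lost at 48 h, 5 lie to its left (the promoter region included). Of all 50 regions, 25 lie on each side, and the sides of the regions without a call at 0 h were not counted.

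One choice decides which gene a region belongs to. The M21 gene record of Slc2a3 starts at position 122801640, because of 1 long transcript, while its other protein-coding transcripts start between 122742262 and 122742920. When the start of every protein-coding transcript was used, all 50 regions stayed in the cluster, but 8 moved from Nanog to Slc2a3, leaving 10 for Nanog and 24 for Slc2a3. Regions gained at 48 h then numbered 1 for Nanog and 7 for Slc2a3, instead of 4 and 4. Lost regions kept their genes, 2 for Nanog and 3 for Slc2a3. Of the Nanog regions named below, +19740, +35265, +37385 and +44285 were among those that moved.

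Nanog lost its promoter region and a distal region, while its strongest upstream region was called throughout. By gene start these were 2 of the 8 Nanog regions called in both 0 h libraries, against 44.0% of all such regions. By transcript starts they were 2 of 5. Without replicate 1, 4 Nanog regions in place of 2 were lost at 48 h. The promoter region Nanog −97 (chr6:122707125-122707659, over the start and 5′ UTR) was called in both 0 h libraries, at percentiles 33.0 and 75.3, in 1 library at 2 h (15.0), in both at 4 h (31.9 and 21.9) and in neither at 8 h. It was called again in both 16 h libraries (56.3 and 44.7), in 1 at 24 h (20.1) and in neither at 48 h. The 16 h values lay above those of 2, 4 and 24 h and inside the wide range of the 0 h pair. Nanog −20530 (chr6:122686759-122687159, intergenic) was at 49.0 and 47.2 at 0 h, had no call at 2 h, was at 2.3 and 31.8 at 4 h and at 25.6 in 1 library at 8 h, and was not called from 16 h on. Between these 2 lies Nanog −17721 (chr6:122689524-122690011, intergenic), named for its calls at 2 h (69.9 and 70.3) and 4 h (35.6 and 31.9) and at no other time. It was chosen for naming after its values were seen. Less than 200 bp to its right lies Nanog −17234, called in 0 h replicate 2 alone (6.7). Merging over 200 bp would join these 2 regions, so the absence of a 0 h call depends on the merging rule.

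By contrast, Nanog −4721 (chr6:122702257-122703278, intergenic), in the part of the locus where a Nanog enhancer is known, was called in all 14 libraries and stood among the highest peaks of each list. Its percentile was 98.8 and 99.4 at 0 h, 99.1 and 99.5 at 2 h, 99 and 97.6 at 4 h, 97.9 in both at 8 h, 98.3 and 97.8 at 16 h, 97.9 and 96.2 at 24 h, and 94.7 and 96.2 at 48 h. Both 48 h values lay below both 0 h values, within a range of ranks from 94.7 to 99.5. The other Nanog regions called in all libraries were −37899 (percentiles 50.5 to 77.7), +12766 (25.3 to 59.6) and +35265 (41.0 to 69.5). The last (chr6:122742412-122743095) covers 2 of the 3 clustered Slc2a3 transcript starts.

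The 4 regions gained nearest to Nanog by gene start were first called in both libraries at 2, 4, 8 and 16 h. These are times of calls, and a region without a call may still have been open. Nanog +44285 (chr6:122751318-122752230, Slc2a3 intron) was called in both libraries from 2 h on, at percentiles between 52.2 and 83.0. Nanog +37385 (chr6:122744510-122745237, Slc2a3 intron) was called from 4 h, at 28.0 and 32.5, held 33.3 and 30.6 at 8 h, reached 90.2 and 83.8 at 16 h and had 63.5 and 69.1 at 48 h. Its 16 h pair lay above all its other values. Nanog −34468 (chr6:122672816-122673225, intergenic) was called in 1 library at 4 h (37.9) and in both from 8 h (42.6 and 13.6), was highest at 16 h (73.2 and 78.5) and ended at 52.9 and 45.5. Nanog +19740 (chr6:122726717-122727741, intergenic) had no call before 16 h (35.4 and 20.9), rose in rank to 70.9 and 72.0 at 24 h and had 57.2 and 62.1 at 48 h.

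At Dppa3, 3 of the 8 regions were called in both 0 h libraries, so only these could be lost. None of the 3 was lost by 48 h, against 44.0% of all such regions, which on so few regions sets Dppa3 apart in nothing. The highest Dppa3 region, far upstream of Nanog, was lower in rank at 48 h. The count of lost regions was 1 with lists of 50000 peaks, 1 with at least 50% of a region covered, 2 without replicate 1 and 1 without replicate 2. No region lay within 1 kb of the Dppa3 start. The nearest were −1691, called in every library but 1 at 48 h, and +1367, first called at 8 h. Dppa3 +36668 (chr6:122662635-122663521, intergenic) was called in all 14 libraries, with its centre −44411 bp from the Nanog start. Its percentile was 97.6 and 94.9 at 0 h, 69.6 and 71.2 at 2 h, 79.3 and 77.7 at 4 h, 70.6 and 73.2 at 8 h, 92.1 and 96.1 at 16 h, 70.3 and 76.7 at 24 h and 42.8 and 39.4 at 48 h. The region thus stood highest at 0 and 16 h, whose values overlap, and lowest at 48 h, with no overlap between 48 h and any other time. Dppa3 −1691 (chr6:122624494-122624943) had 79.0 and 76.7 at 0 h, 62.8 and 71.8 at 8 h, 90.3 and 82.0 at 16 h, 65.8 and 68.3 at 24 h and 4.1 in 1 library at 48 h. Dppa3 +7158 (chr6:122633262-122633874, intergenic) was called in all libraries, at 74.8 to 85.7. The 1 gained region, Dppa3 +17186 (chr6:122643209-122643982), was called in 1 library each at 16 h (21.4) and 24 h (6.9) and in both at 48 h (45.4 and 35.5).

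All 4 regions of Gdf3 were called in both 0 h libraries, so none could be gained. At 48 h, 2 of the 4 were lost, against 44.0% of all such regions, and 2 were called in both libraries. With lists of 50000 peaks 1 Gdf3 region was lost. The lost Gdf3 +2028 and the kept Gdf3 +1375 lie less than 200 bp apart. Merging over 200 bp would join them into 1 region called in all 14 libraries. With that merging, 7 regions of the whole cluster were lost in place of 8. The promoter region Gdf3 +97 (chr6:122609718-122610262, 5′ UTR and coding exon) was called in all 14 libraries, at percentiles from 30.8 to 54.0, and so was Gdf3 +1375 in the intron (chr6:122608453-122608970), at 57.6 to 88.0. Gdf3 −7698 (chr6:122617329-122618241, intergenic, between Gdf3 and Dppa3) had 76.8 and 84.0 at 0 h, 44.1 and 66.2 at 2 h and 34.6 and 28.0 at 4 h. It had no call at 8 h, was called in 1 library at 16 h (47.2) and 1 at 24 h (27.3), and had no call at 48 h. Its rank thus went down before its calls went. Gdf3 +2028 (chr6:122607844-122608274, exonic) was a lower peak, at 7.6 and 32.1 at 0 h, called afterwards in 1 library at 8 h (32.4) and 1 at 16 h (20.9).

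Apobec1 had 4 regions. Apobec1 +11160 (chr6:122590866-122591702, UTR and coding exon) was called in both libraries of every time up to 16 h and in none at 24 and 48 h. Its percentile was 65.7 and 60.2 at 0 h, 92.4 and 93.9 at 2 h, 57.2 and 52.6 at 4 h, 16.3 and 18.3 at 8 h and 18.8 and 31.3 at 16 h. The 2 h pair lay above all other values and the 8 h pair below those of 0, 2 and 4 h. The promoter region Apobec1 +34 (chr6:122602285-122602534, UTR) was called in 13 libraries, at 65.1 and 62.4 at 0 h and between 18.5 and 44.3 thereafter, and missed its call in 1 library at 48 h.

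At Slc2a3, 3 regions were lost and 4 gained, all in introns of its long transcript. By gene start, 7 of its regions were called in both 0 h libraries, so 3 of 7 were lost, against 44.0% of all such regions. By transcript starts it was 3 of 10. Shares gained were not counted by gene. Slc2a3 +35327 (chr6:122766136-122766490) had 58.4 and 49.0 at 0 h and no call later, and neither had Slc2a3 +16572 (chr6:122784965-122785170), with 12.1 and 36.6 at 0 h. Slc2a3 +31076 (chr6:122770186-122770942) was the last to go. It had 72.1 and 78.4 at 0 h, 59.9 and 67.7 at 2 h, 46.7 and 63.4 at 4 h, 16.6 and 17.4 at 8 h, 52.9 and 65.9 at 16 h, 3.9 and 11.9 at 24 h and no call at 48 h. The 16 h pair lay above those of 8 and 24 h and below that of 0 h.

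Among the gained Slc2a3 regions, +24238 (chr6:122777055-122777749) was called from 2 h (35.3 and 38.5), stood at 90.5 and 92.9 at 4 h and 96.3 and 96.6 at 8 h, and went down to 71.5 and 68.7 at 48 h. Its 8 h pair lay above all others. Slc2a3 +38483 (chr6:122762991-122763323) was called in 1 library at 2 h (17.5) and in both from 4 h, at 80.1 and 82.0, with 54.3 and 47.8 at 48 h. Slc2a3 +19274 (chr6:122782108-122782623) appeared in 1 library at 8 h (17.3), had 86.3 and 91.1 at 16 h and 73.5 and 69.7 at 48 h. Slc2a3 +42220 (chr6:122759285-122759554) was called at 48 h alone, at 23.6 and 24.2.

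By gene start, the regions at Slc2a3 that were called in all 14 libraries covered wider ranges of rank than those at Gdf3. By transcript starts this does not hold for all, as Nanog +35265 (41.0 to 69.5) then belongs to Slc2a3 and Gdf3 +1375 ran from 57.6 to 88.0. Slc2a3 +15606 (chr6:122785473-122786594) went from 19.1 and 42.4 at 0 h to 69.9 and 78.5 at 48 h, and Slc2a3 +36531 (chr6:122764682-122765536) from 66 and 56.3 to 89.9 and 88.7. In both, the 0 and 48 h pairs did not overlap. Slc2a3 −3086 (chr6:122804466-122804986, intergenic) was low at 0 h (20.9 and 2.5), high at 2 h (85.0 and 86.7) and 4 h (82.9 and 87), and back at 37.0 and 26.1 at 48 h. The promoter region of the long transcript, Slc2a3 −34 (chr6:122801049-122802299), was called in 1 library each at 0, 2 and 4 h and in both from 8 h on. Slc2a3 +28682 (chr6:122772624-122773291, intron), singled out after its values were seen, was at 8.7 in 1 library at 0 h, had no call at 4 h and reached 62.2 and 74.3 at 16 h, 93.2 and 96.0 at 24 h and 98.6 and 98.5 at 48 h, the highest ranks of any region of the cluster at that time.

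The regions not named above were mostly low peaks with few calls, with some exceptions. Slc2a3 +21556 was called in 12 libraries, at 80.1 and 73.7 at 0 h and 15.0 in 1 library at 48 h. Apobec1 +6598 was called in 10 libraries (7.0 to 55.3). Nanog +32767 (12 libraries, 3.9 to 56.5) and Nanog +36123 (13 libraries, 0.9 to 58.6) were called in both libraries at 0 and 48 h. Of the 8 called at intermediate times alone, 4 were called in 1 library, and the 7 other than Nanog −17721 had percentiles from 0.1 to 42.5. Of the 12 that were called in 1 of the libraries at 0 or 48 h, some of them named above, the number of libraries ran from 1 to 13. Of these, 3 (Dppa3 +10420, Nanog −17234 and Nanog −13263) were called in 0 h replicate 2 alone, at percentiles 6.5 to 8.6. The next region to the right of the cluster was nearest to Foxj2, 9486 bp from the Slc2a3 start, and was called in all 14 libraries, as was the last member, Slc2a3 −3086.

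**Figure D2:**
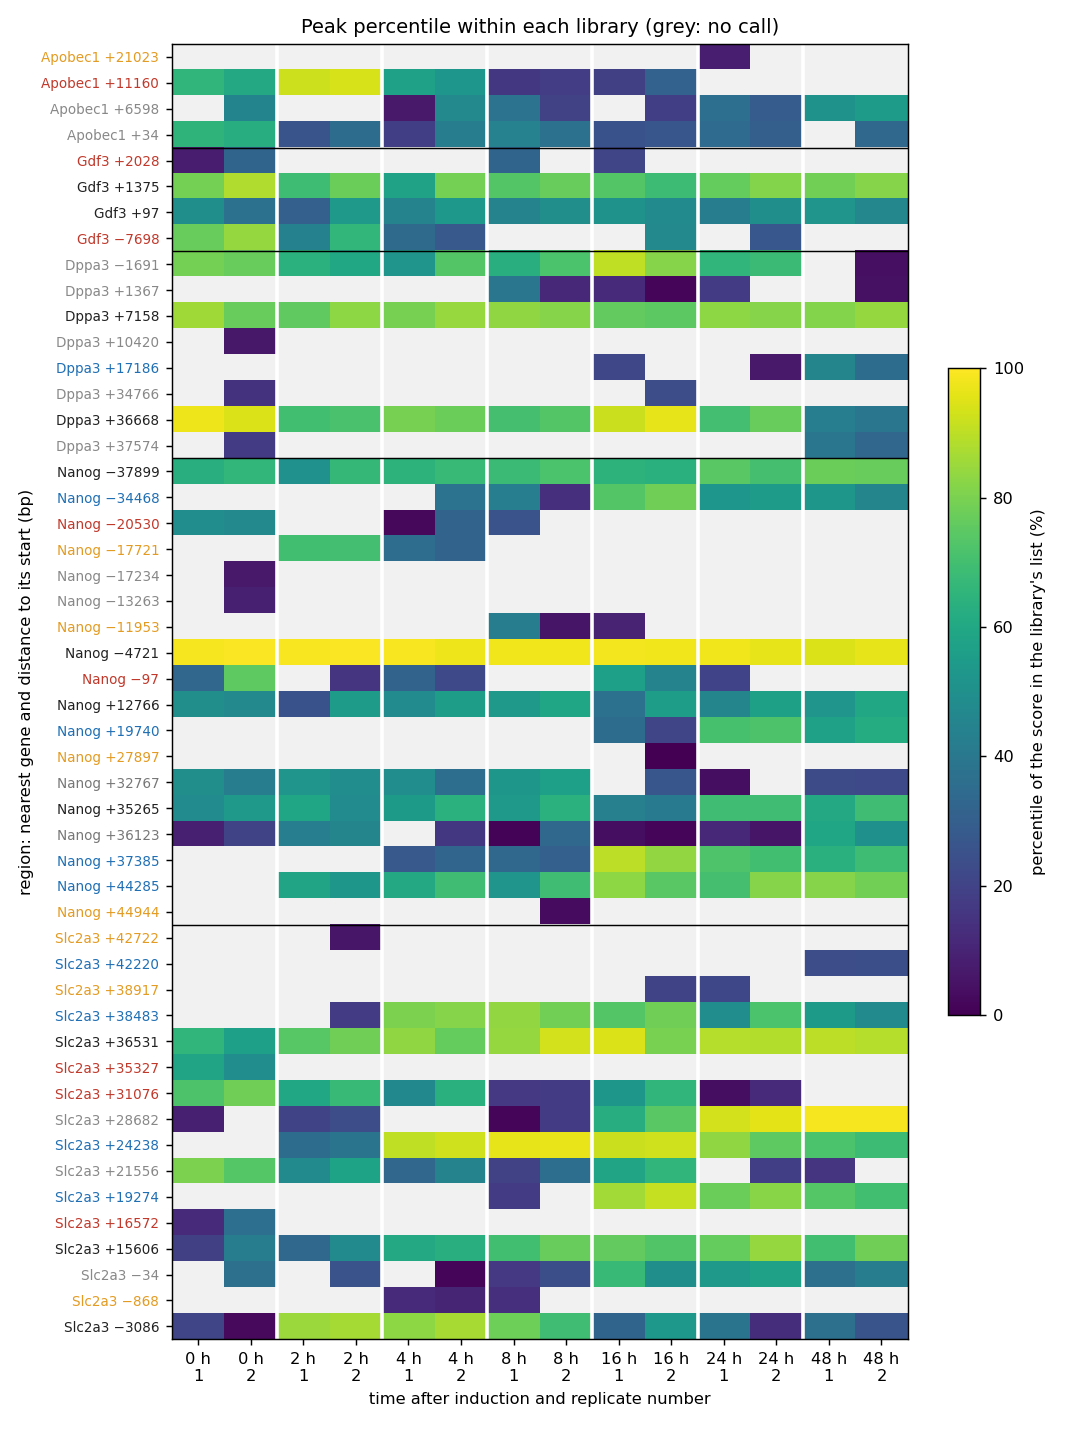
Percentile of each of the 50 regions (rows, in chromosomal order, named by nearest gene and distance to its start in bp) within each of the 14 libraries (columns, by time and replicate), with grey for no call. Row names are red for regions lost at 48 h, blue for gained, black for called in all 14 libraries, dark grey for otherwise shared, orange for called at intermediate times alone and light grey for the rest; Nanog −4721 stays bright in every column while Nanog −97 is grey at 8 and 48 h.

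**Figure D3:**
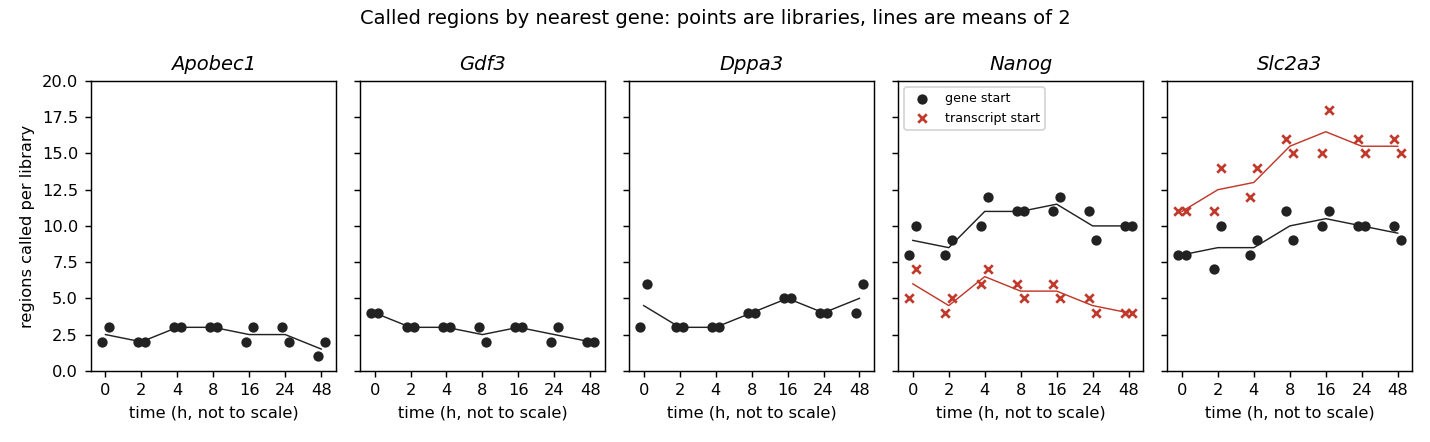
Regions called per library (y axis, number) at each time (x axis, h) for each gene; points are the 2 libraries of a time point and lines their means, black with regions assigned by gene start and red by every transcript start, where these differ. Gdf3 went from 4 regions in both 0 h libraries to 2 in both 48 h libraries, and Slc2a3 by transcript starts from 11 and 11 to 16 and 15.

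The counts per library by gene are given next. Gdf3 had 4 calls in both 0 h libraries and 2 in both 48 h libraries. Apobec1 had 2 and 3 at 0 h and 1 and 2 at 48 h, and Dppa3 3 and 6 against 4 and 6. These pairs overlapped. Nanog, with regions by gene start, had 8 and 10 at 0 h and 10 in both at 48 h. By transcript start it had 5 and 7 at 0 h and 4 in both at 48 h, so that its direction hangs on the assignment of the 8 shared regions. Slc2a3 had 8 in both 0 h libraries and 10 and 9 at 48 h by gene start, and 11 in both against 16 and 15 by transcript start.

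Set beside all regions, the share of the cluster that was lost equalled the background at 2 h and lay below it later, and the share that was gained equalled it at 2 h and lay above it later. Of the 24 regions called in both 0 h libraries, 4 were lost at 2 h (16.7%, against 16.5% of all such regions), 3 at 4 h (12.5% against 19.5%), 4 at 8 h (16.7% against 26.4%), 3 at 16 h (12.5% against 25.7%), 5 at 24 h (20.8% against 35.0%) and 8 at 48 h (33.3% against 44.0%). Of the 18 regions called in neither 0 h library, 3 were gained at 2 h (16.7% against 17.8%), 6 at 4 h (33.3% against 20.8%), 7 at 8 h (38.9% against 22.9%), 8 at 16 h (44.4% against 27.3%), 7 at 24 h (38.9% against 23.8%) and 9 at 48 h (50.0% against 29.8%). With sets this small, 1 region more or less shifts a share by 4.17% or more. The members were chosen with these calls known, and 2 libraries against 2 allow no exact two-sided p below 0.333, so neither difference was tested.

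**Figure D4:**
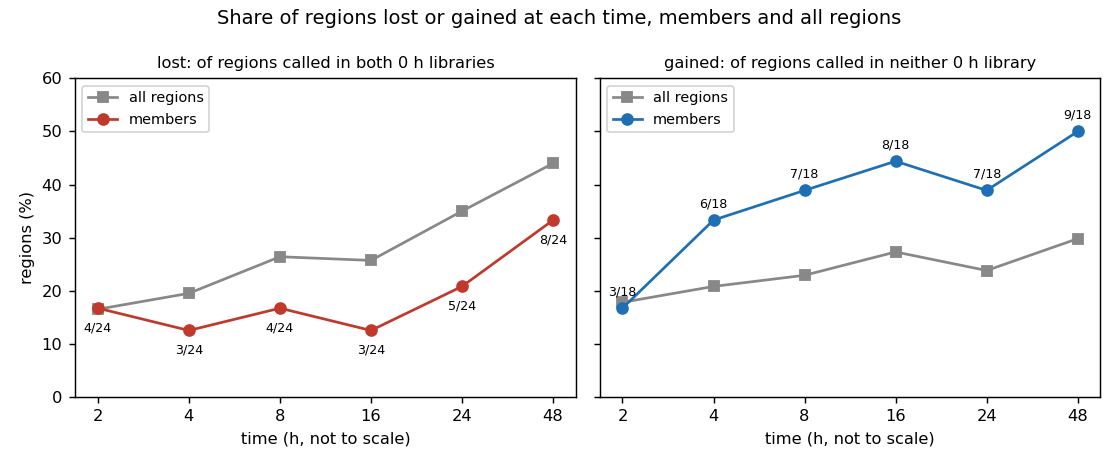
Percentage of regions (y axis) lost at each time (x axis, h) among those called in both 0 h libraries (left) and gained among those called in neither (right), for members (coloured, with counts) and all regions (grey). At 48 h, 8 of 24 members were lost against 44.0% of all regions and 9 of 18 gained against 29.8%.

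The order of loss was early for some regions and late for others. Of the 8 regions lost at 48 h, 2 had their last call in any library at 0 h (Slc2a3 +35327 and Slc2a3 +16572), none at 2 or 4 h, 1 at 8 h (Nanog −20530), 2 at 16 h (Apobec1 +11160 and Gdf3 +2028) and 3 at 24 h (Gdf3 −7698, Nanog −97 and Slc2a3 +31076). Over all 20706 regions lost at 48 h, the last call came at 0 h in 22%, at 2 h in 10.2%, at 4 h in 12.9%, at 8 h in 7.94%, at 16 h in 22.9% and at 24 h in 24.0%. The 4 regions without any call at 2 h were Gdf3 +2028, Nanog −20530, Slc2a3 +35327 and Slc2a3 +16572, and 2 of them were called again later. Of the 9 gained regions, 2 were first called in both libraries at 2 h, as were 2 at 4 h, a single one at 8 h, another 2 at 16 h and the last 2 at 48 h. Over all 18070 gained regions, the first time with both calls was 2 h in 11.1%, 4 h in 12.0%, 8 h in 10.4%, 16 h in 15.8%, 24 h in 13.3% and 48 h in 37.4%.

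At 16 h, a return of calls was seen at the Nanog promoter alone among regions called in both 0 h, neither 8 h and both 16 h libraries. This was 1 of the 24 regions called in both 0 h libraries (4.17%), against 2.96% of all such regions. Taken from the 4 regions without a call at 8 h, it was 1 of 4 (25%), against 11.2% of all. A share this near to the background on 1 region says nothing particular of the cluster. When 1 library was enough for a call, Gdf3 −7698 and Dppa3 +34766 joined it, and when each list was cut to its 50000 highest peaks, Slc2a3 +31076 did. In replicate 1 alone the Nanog promoter was the single such region, and in replicate 2 alone there were 3, the Nanog promoter, Gdf3 −7698 and Dppa3 +34766.

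The ranks at 16 h moved both ways. Of the 22 regions called in all 6 libraries of 8, 16 and 24 h, 5 had both 16 h percentiles above all values of 8 and 24 h (22.7%, against 16.1% of all such regions): Dppa3 −1691, Dppa3 +36668, Nanog −34468, Nanog +37385 and Slc2a3 +31076. They include 1 region that was lost and 2 that were gained by 48 h. In 4 regions both 16 h percentiles lay below (18.2%, against 9.06%): Apobec1 +34, Dppa3 +7158, Nanog −37899 and Nanog +35265. This way of counting was set after the ranks had been seen. Since weak peaks at the end of a longer list raise every percentile above them, the places were also counted from the top of each list. The same 5 regions then lay above (22.7%, against 13.3% of all such regions) and the same 4 below (18.2%, against 12.1%). The list of 16 h replicate 2 was the longest of the 14, and the part of list length in the calls at 16 h was not tested beyond the lists of 50000 peaks.

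**Figure D5:**
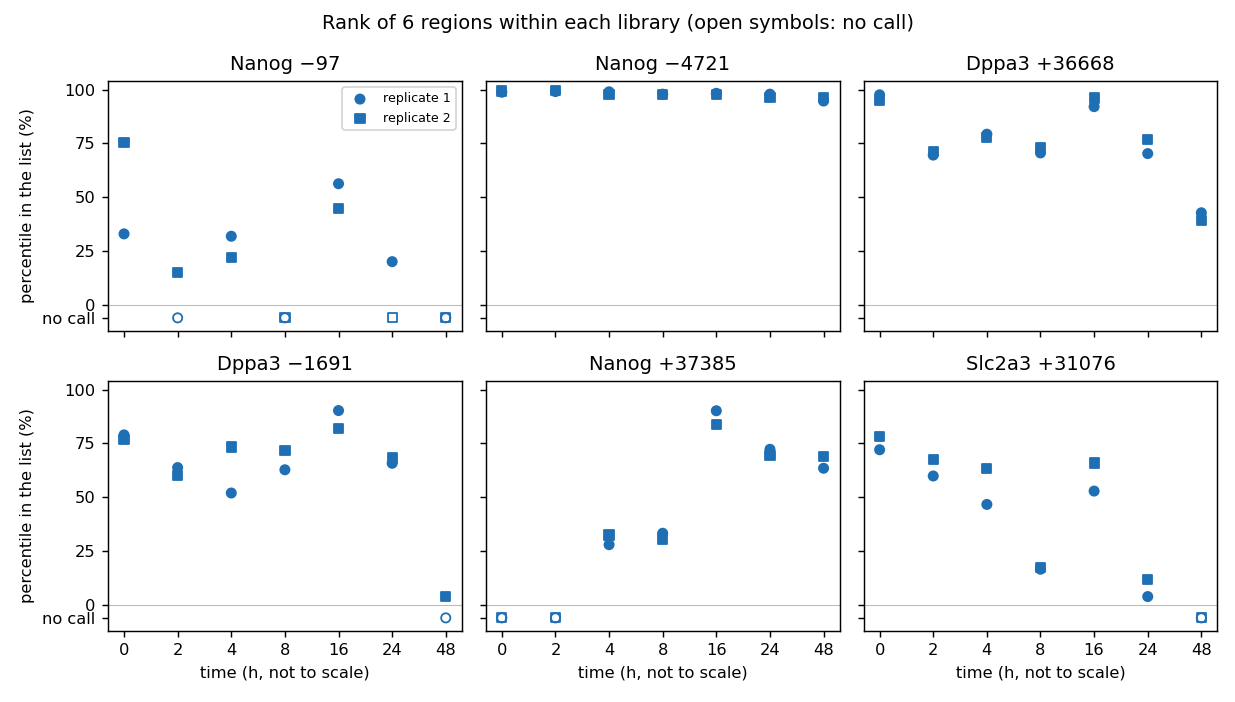
Percentile within the list (y axis, %) at each time (x axis, h) for 6 regions, with circles for replicate 1, squares for replicate 2 and open symbols below 0 for no call. At 16 h, Dppa3 +36668 stands at 92.1 and 96.1, above 8 h (70.6 and 73.2) and 24 h (70.3 and 76.7), and Nanog −97 at 56.3 and 44.7 between times without a call in one or both libraries.

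The letters in the central 200 bases were counted in the lost and gained regions and set beside all regions of the same kind. GATA letters were found in 6 of the 9 gained regions (66.7%) and in 1 of the 8 lost ones (12.5%). Over all merged regions they were in 35.5%, over all gained regions in 57.8% and over all lost regions in 22.5%. In the whole length of each region, counted as well after the data were seen, GATA letters were in 8 of the 9 gained regions (88.9%, against 74.5% of all gained) and in 4 of the 8 lost (50.0%, against 55.1% of all lost), so the contrast rests in part on the window. Octamer letters were in 3 of the 8 lost regions (Nanog −97 and Slc2a3 +16572 among them) and in 1 of the 9 gained, against 9.52% and 3.72% of all lost and all gained regions. The adjoining octamer and SOX letters of the Nanog promoter were the one case in the cluster where a region held both, as SOX letters were in 3 of the 50 regions (6.0%, against 13.5% of all). ESRRB letters were in Slc2a3 +31076 alone (2.0% of 50 regions, against 0.906%). KLF letters were in 9 regions (18.0% against 14.5%), AP-1 letters in 4 (8.0% against 11.6%) and STAT letters in 2 (4.0% against 6.09%). In these 200 bases, the 11 regions called in all libraries held no octamer, SOX or ESRRB letters. Over all regions of that kind the shares were 3.28%, 7.25% and 0.393%, so few matches would be found in 11 regions at those shares. In the whole length of the regions, SOX letters were in Dppa3 +7158, Slc2a3 +36531 and Slc2a3 +15606.

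Base composition was counted in the same windows. The median GC content of the central 200 bases was 49.2% in the cluster and 50.5% over all regions, and the regions called in all libraries had 52.0% against 59.0% of all regions of that kind. The promoter region of the long Slc2a3 transcript stood apart, with 75% GC and 31 CpG dinucleotides in 200 bases. Soft-masked repeat sequence made up 17.8% of the central bases of the cluster on average and 12.1% over all regions, and more in lost regions (28.6%, against 13.8% of all lost regions) and gained regions (21.9% against 11.2%). The value was 74.5% in Nanog +44285 and 25.5% in Nanog −97. The part of read mapping in repeats in these calls was not tested. The median width was 448 bp in the cluster and 489 bp over all regions.

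Genes of the same network were counted for comparison. The pluripotency network, 25 genes that include Pou5f1, Sox2, Esrrb, Klf4, Tfcp2l1, Zfp42 and Prdm14, had 305 regions, of which 114 were called in both 0 h libraries, and 58 of these were lost at 48 h (50.9%, against 33.3% in the cluster and 44.0% of all regions). It gained 51 of 147 regions (34.7%, against 50.0% in the cluster and 29.8% of all such regions). Calls at 0 and 16 h but not 8 h were seen in 3 of its 114 regions, against 2.96% of all such regions. There was 1 each at Esrrb, Tfcp2l1 and Zfp42. None of these differences was tested.

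The number of called Nanog regions over the 14 libraries was most like that of Gm20479 (Pearson r = 0.928), Mras (0.887), Dnah2 (0.858), St6galnac3 (0.855) and Rps15a (0.854), of 7140 genes with at least 5 regions. Slc2a3 had 0.565 and Dppa3 0.325. By transcript starts the most like were Tfcp2 (0.891), Ago2 (0.867), Atp6ap2 (0.842), Tfeb (0.836) and Kazn (0.83), with no gene in common with the first list. All counts share the libraries and their list lengths, and the values are the highest of many, so they describe these lists and nothing more.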

How the data were processed

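ATAC-seq was performed on 14 libraries. The authors processed the reads with the ENCODE ATAC-seq pipeline and deposited a list of peaks for each library without pooling replicates; per the file names, peaks passed an irreproducible discovery rate of 0.05 between pseudoreplicates and a blacklist filter. Each deposited peak carries a score on an unstated scale, which was used only to rank peaks within its list. The processing notes name mm10 and GRCm38, and 0 of 839049 peaks ended past a GRCm38 chromosome. Peaks were merged (1 bp), called and assigned to GENCODE M21 starts with pandas 2.3.3 and numpy 2.4.6 in Python 3.11.15. Sequences were read from RefSeq GRCm38.p6 with pysam 0.24.0, and a RefSeq promoter was found for Nanog and Apobec1. The steps were tested on simulated data. The regions named were those within 1 kb of a member start, those lost or gained at 48 h, those back at 16 h and those called in all 14 libraries, with the exceptions said in the text. The members, lists and motifs were chosen with earlier results of these data known. The genes flanking the cluster and some sequences are not reported here. No test was made. The alternatives were lists of 50000 peaks, 50% coverage, merging over 200 bp, other starts, distances of 20 and 100 kb, 1 library as a call, and each replicate alone.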

Additional observations from a re-analysis of the deposited data

Results flagged for a closer look

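The peak over the clustered Slc2a3 transcript starts, Nanog +35265, lay on both sides of its 0 h rank at different times. Its mean percentile was 51.0 at 0 h. Both libraries were above both 0 h libraries at 4 h (mean 59.2), 24 h (69.4) and 48 h (64.8), and both were below at 16 h (42.2). The difference between these times was not tested. Of the 11 regions called in all libraries and the counts of called regions by gene, no other did this.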

How the results depend on the processing

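The counts over the cluster were recomputed in 89 cases, and 66 of these values were within 1.5 times the reported one. Lists of 50000 peaks gave 2 regions called again at 16 h in place of 1, and 1 library as a call gave 3. With at least 50% of a region covered, 7 regions in place of 13 were shared between 0 and 48 h. Starts of protein-coding transcripts and a distance of 100 kb moved none of these counts by that much. Nor did merging over 200 bp, which gave 45 regions in place of 50, and 7 lost in place of 8. With starts of genes of any type, 22 regions were members, of which 12 were called in both 0 h libraries, 3 were lost, 3 gained and 8 shared, and called regions per library for 0, 8, 16 and 48 h were 14, 15, 17 and 14. Within 20 kb these values were 26, 14, 5, 3 and 7, and 16.5, 15.5, 17.5 and 13.5. With 1 replicate of each time left out, lost regions numbered 10 to 13, gained 11 to 12, shared 15 to 18, those called at 0 h 25 to 31 and those called again at 16 h 1 to 3; without replicate 1 there were 13 lost regions and 3 called again. By gene, 12 of 40 values moved by more than 1.5 times. No paired analysis was possible because the counts come from no test, and the values within 1 replicate number are those with the other left out. The lists hold no depth, which limits each missing call.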
